A study of Mus musculus with 60 samples.

Results

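The comparison described here followed tail tip fibroblasts (FBs) of the Ercc1 line through the first 2 days of induced reprogramming in the presence of VC. Its members are 6 RNA-seq libraries of the 60 samples in the series, chosen by their labels: 3 of D/KO FBs on day 0 with VC and 3 on day 2 with VC (day 0 plus VC, and likewise day 2 plus VC, below). All 6 came from one male line sampled at 8 weeks of age, called D/KO because it carries a truncated Ercc1 allele over a null one (Ercc1 d/-). The line also holds a single copy each of the 4F transgene (4Fj+/-), a doxycycline-inducible cassette that encodes Oct4, Sox2, Klf4 and c-Myc (OSKM), and of the rtTA activator (rtTA+/-), so both groups carry the cassette. Doxycycline at 2 µg/ml drives it, and VC is ascorbic acid at 50 µg/ml together with CHIR99021, a GSK3 inhibitor spelled CHIR-99201 in the labels, at 3 µM. Both groups are labelled plus VC, and how long the day 0 cells had been in VC is not given in the sources used here. For comparison, 6 D/KO libraries at day 0 and day 2 without VC were used, and 6 libraries of the WT line with VC at the same days, which was taken from a female at 22 weeks, is labelled 4FJ_(+/-)_OCT4-GFP and carries the cassette as well. Each group has 3 libraries from a single line, nothing says that they are separate cultures, and p-values therefore measure the spread between these libraries, which may be technical.

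Forced expression of OSKM turns somatic cells into pluripotent ones over a period of weeks, and in FBs the initiation phase is known for a loss of the mesenchymal program, a partial gain of epithelial genes and a change of cell cycle and metabolism. GSK3 phosphorylates beta-catenin for destruction, so that its inhibitor raises beta-catenin-dependent (Wnt) transcription, and ascorbic acid is a cofactor of the prolyl hydroxylases that mature collagen and of the Tet and histone demethylases. Ercc1 forms with Ercc4 (Xpf) the endonuclease that cuts 5′ of bulky lesions in nucleotide excision repair and also acts in crosslink repair.

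Between day 0 and day 2 with VC, D/KO FBs gained the 4 factors, several keratin and cornified envelope genes that had been at or near 0 and nucleolar, replication and cholesterol synthesis genes, and lost collagens, contractile genes and cytokines. Of 15832 genes tested, 3765 (23.8%) were higher and 3743 (23.6%) lower after the 2 days, the threshold being an adjusted p-value of 0.05 by edgeR's quasi-likelihood test, 47.4% in all, and a gene is said below to have risen or fallen only where it passed that threshold. A log2 fold change of at least 1 was reached as well by 1498 of the genes that rose (9.46% of those tested) and 1708 of those that fell (10.8%). The median log2 fold change over all tested genes was -0.010. Levels are counts per 1000000 (CPM) scaled by TMM, a method that removes the effect of a few very abundant genes, and the choice matters here: Col1a1 alone took 9.2, 12.7 and 11.6% of the counts on day 0 and 2.57, 2.75 and 2.67% on day 2. Scaled by library totals instead, the same test called 5860 genes higher and 2368 lower, and the median moved to 0.245. Totals were 17106202 to 17912692 counts per library, and the first principal component separated the days with 94.99% of the variance. Replicate libraries had a variance over genes of 22.7 to 30.9 times counting noise at day 0 plus VC and of 7.45 to 11.4 times at day 2 plus VC. None was thus the same library sequenced again, which does not tell whether the libraries are separate cultures. As the libraries are bulk RNA, fewer cells of a type and less RNA per cell cannot be told apart in any value given here.

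The targeted gene came first. Ercc1 (ENSMUSG00000003549) was counted at 17.4, 15.6 and 11.9 CPM at day 0 plus VC and at 12, 13.3 and 13.6 CPM at day 2 plus VC, ranges that overlapped, with a log2 fold change of -0.21 ± 0.17 (adjusted p = 0.322). WT FBs with VC held 22.4 ± 3.45 CPM (SD, n = 3) at day 0 and 19.7 ± 2.18 CPM at day 2. The D/KO libraries thus did hold Ercc1 reads, a count per gene does not show whether a transcript is truncated, and Ercc1 overlaps Polr1g on the other strand.

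All 4 reprogramming factors rose, and the groups did not overlap for any of them, as in 27% of all tested genes in that direction and 53% in either. Pou5f1, which encodes Oct4, went from 2.72, 2.56 and 2.88 CPM to 111, 86.2 and 98.5 CPM, a log2 fold change of 5.18 ± 0.33 (adjusted p = 2.69e-15). Sox2, its partner factor, went from 2.52, 5.8 and 2.88 CPM to 146, 118 and 143 CPM (5.20 ± 0.28 on the log2 scale). Both were close to absent in the starting cells, and reads of the cassette and of the endogenous genes are not separated in the counts. Klf4 started at 85.3, 84.6 and 39.6 CPM and reached 305, 255 and 296 CPM (2.03 ± 0.19). Myc, a driver of growth and ribosome production, started at 38.2, 30.9 and 39.8 CPM and reached 334, 316 and 338 CPM (3.18 ± 0.12). The last 2 were thus well expressed before induction. At day 0 plus VC the third library was the lowest for Klf4 and the second the highest for Sox2. The rise of Myc was larger by 1.22 ± 0.15 on the log2 scale than without VC (adjusted p = 5.6e-07) and larger by 1.04 ± 0.16 than in WT FBs with VC (adjusted p = 8.43e-06).

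Most pluripotency genes had too few counts to be tested. Of 21 early pluripotency genes, 7 had enough counts to be tested, and Nanog, Sall4, Lin28a, Esrrb, Zfp42 and Fut9 were not among them. Fgf4, a growth factor gene with a known Oct4 and Sox2 enhancer, had no count in any day 0 plus VC library and 6.83, 8.82 and 5.76 CPM at day 2 plus VC, at least 102-fold higher than the level that 3 counts over the day 0 group allow. The TGFb family ligand gene Gdf3 likewise went from 0 to 0.405, 1.01 and 2.24 CPM, at least 17.4-fold. Of the 7 tested 2 rose and 4 fell, beside 23.8% higher and 23.6% lower among all tested genes. Those that fell included the alkaline phosphatase gene Alpl, from 9.38, 14.8 and 8.49 CPM to 0.984, 1.42 and 0.895 CPM (-3.30 ± 0.40), and Klf2 (-2.83 ± 0.20). Alpl was already at 0.819 ± 0.673 CPM (SD, n = 3) in day 0 cells without VC, so the high level from which it fell was seen with VC.

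The 12 largest rises in fitted fold change were those of Krt14, Slurp1, L1td1, Nccrp1, Krt16, Myoc, Ces1f, Klk14, Lypd2, Krt13, Mal and Crym. Krt14, the type I keratin of the basal layer, had no count at day 0 plus VC and 98.9, 117 and 118 CPM at day 2 plus VC, at least 1596-fold higher. At day 2 without VC Krt14 was at 13.1 ± 4.65 CPM and Krt16 at 67.8 ± 9.84 CPM, and in WT FBs with VC at 8.95 ± 1.49 CPM and 1.14 ± 0.525 CPM (SD, n = 3), so that Krt14 was higher and Krt16 lower with VC than without at day 2. The VC and the line differences in the change of Krt14 did not pass the test (edgeR adjusted p = 0.0584 and 0.354), and for Krt16, at 0 in all day 0 libraries with or without VC, these differences could not be estimated. Slurp1, a secreted keratinocyte protein, went from 0 to 84.5, 87.8 and 95.5 CPM, at least 1279-fold, and Them6 lies opposite it. L1td1, an RNA-binding protein derived from a LINE-1 element and used by pluripotent cells, went from 0 to 54, 72.3 and 56.7 CPM, at least 874-fold. All 3 genes were thus silent to within 3 counts in one group and at 54 CPM or more in every library of the other. Nccrp1 followed with 43.3, 55.7 and 58.4 CPM (at least 752-fold), Krt16, a keratin of activated epidermis, with 25.7, 33 and 30.4 CPM (at least 426-fold), and Myoc, the gene of the secreted glycoprotein myocilin, with 25.6, 14.3 and 9.34 CPM (at least 235-fold). Ces1f, Klk14, Lypd2 and Krt13, all without a count at day 0 plus VC, rose at least 233-, 125-, 125- and 115-fold. Mal, a membrane raft proteolipid, had 3 counts in the day 0 plus VC group and 117, 125 and 147 CPM afterwards, a ratio of 1863 with a 95% counting interval of 637 to 9038. Crym, a thyroid hormone-binding crystallin, had 2 counts and then 93.6, 76.2 and 67.4 CPM, a ratio of 1697 (469 to 14018).

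The 250 bases upstream of the start are shown for Krt14, L1td1 and Myoc, the first 3 of these rises in order of fitted fold change for which a reference promoter was at hand, because these genes went from no count to many. The windows are chr11:100098491-100098740 on the minus strand, chr4:98614732-98614981 on the plus strand and chr1:162466468-162466717 on the plus strand of GRCm39, each ending at the base before the outermost GENCODE M39 start of a transcript with a consensus coding sequence. For Krt14 that start lies 116 bases upstream of the gene start in the deposited table. They are written 5′ to 3′ in the direction of the gene, and capitals mark matches to 8 motifs searched on both strands, namely TGANTCA (AP-1), CACGTG (E-box), CCAAT (the CCAAT box), GGGCGG (GC box), GGGTGTG (KLF), ATGCAAA (octamer), CTTTGAT (TCF/LEF) and TATAAA (the TATA box).
Krt14: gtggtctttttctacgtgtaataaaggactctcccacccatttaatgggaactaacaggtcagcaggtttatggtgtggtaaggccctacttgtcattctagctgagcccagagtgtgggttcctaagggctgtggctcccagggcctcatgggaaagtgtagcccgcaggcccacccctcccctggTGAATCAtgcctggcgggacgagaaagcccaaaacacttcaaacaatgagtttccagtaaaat
L1td1: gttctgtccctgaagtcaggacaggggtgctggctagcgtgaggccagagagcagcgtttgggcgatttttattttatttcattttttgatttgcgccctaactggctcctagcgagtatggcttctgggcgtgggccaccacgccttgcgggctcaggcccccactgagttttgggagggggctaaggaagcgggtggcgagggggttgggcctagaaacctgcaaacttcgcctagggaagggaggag
Myoc: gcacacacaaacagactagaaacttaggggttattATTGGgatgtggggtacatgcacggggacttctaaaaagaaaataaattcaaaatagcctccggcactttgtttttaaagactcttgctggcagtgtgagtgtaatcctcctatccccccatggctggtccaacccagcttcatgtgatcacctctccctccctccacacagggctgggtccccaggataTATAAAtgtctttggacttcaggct
The Krt14 window held 1 match, TGANTCA beginning 63 bases before the start. None of the 8 motifs occurred in the L1td1 window. Myoc had TATAAA 25 bases before the start and CCAAT on the opposite strand at 215.

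Across promoters, the shares of windows with the same motifs are given for the genes that rose and for those that fell, without a test. RefSeq windows of the same length on GRCm38.p6 were found for 2797 of the 3765 genes that rose and 2748 of the 3743 that fell. TGANTCA stood in 5.18% of the former, 5.54% of the latter, 4.89% of those of all tested genes and 6.75% of all 32851 windows. GGGCGG stood in 56.9, 57, 55.6 and 32.7% of these sets and TATAAA in 6.76, 7.12, 6.93 and 12.4%. The shares for CTTTGAT were 2.79, 2.03, 2.34 and 3.21%, for GGGTGTG 8.37, 7.29, 7.22 and 6.93% and for ATGCAAA 3.58, 3.17, 3.24 and 4.12%. CACGTG was present in 7.86, 7.84, 7.99 and 6.02% and CCAAT in 33.8, 33.7, 34.9 and 33.8%. A match to letters is a description of the window and not a binding site.

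**Figure D1:**
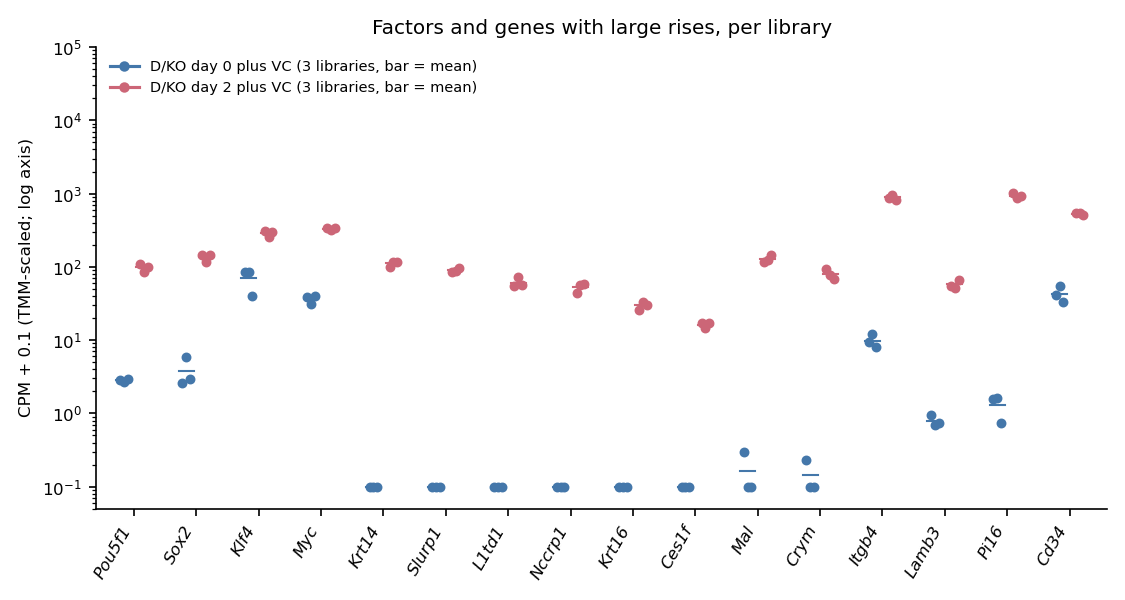
Level per library of the 4 factors and of 12 genes with large rises, as CPM plus 0.1 on a log axis. Points are the 3 libraries of D/KO FBs with VC on day 0 and on day 2, bars are their means, and points at the bottom are libraries without a count. In each of the 16 genes every day 2 plus VC library lies above every day 0 plus VC library.

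Of 18 keratins with a row of counts, 15 passed the count filter. Of these 10 rose and 3 fell (1 without the third library of either group). Among all tested genes 23.8% were higher and 23.6% lower. Many epithelial genes passed that filter only through the groups in which they were high and so had to differ, and counts of them are a description. With at least 10 counts required in every library, 1 keratin, 2 junction genes and 3 keratinocyte markers rose, and no cornified envelope gene or epithelial transcription factor did. Krt19 went from 1.36, 2.41 and 1.68 CPM to 6.54, 12.4 and 7.44 CPM (2.28 ± 0.26), Krt80 rose by 3.14 ± 0.25, and Krt8 reached 3.12, 4.26 and 2.52 CPM from at most 0.151 CPM. Its partner in simple epithelia, Krt18, went the other way, from 0.0647, 0.151 and 0.771 CPM to no count (adjusted p = 0.0161, and 0.144 without the third day 0 library). Krt8, Krt18 and other keratins have near-identical copies elsewhere in the genome, and how shared reads were counted is not given in the sources used here. Of 17 cornified envelope genes 10 passed the filter, and of these 8 rose and none fell, beside the same shares of all tested genes. Evpl, which encodes the envelope plakin envoplakin, went from 0.0647, 0.151 and 0.21 CPM to 11.2, 11.1 and 12.8 CPM (6.32 ± 0.42), and its change exceeded that in WT FBs by 5.99 ± 0.67 (adjusted p = 4.96e-08). The crosslinking enzyme gene Tgm1 rose by 1.56 ± 0.30, and Sfn had a log2 fold change of 0.59 ± 0.26 (adjusted p = 0.0607). Krtdap reached 4.86, 6.51 and 5.03 CPM and Cnfn 1.97, 3.25 and 2.8 CPM from no count.

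Of 24 junction genes 12 passed the filter. Of these 8 rose and 2 fell, beside 23.8% higher and 23.6% lower among all tested genes. As above, these counts are a description. Cdh1 (E-cadherin), the hallmark of epithelial adhesion, had 2 counts in the day 0 plus VC group and 5.32, 6.27 and 6.88 CPM at day 2 plus VC, a ratio of 133 with a 95% counting interval of 36.4 to 1099. The desmosomal genes moved more in level. Pkp1 went from 0.129, 0 and 0.14 CPM to 64.7, 64.3 and 87.9 CPM, Dsp (desmoplakin) from 7.64, 4.74 and 3.51 CPM to 49.3, 54.7 and 65.5 CPM (3.40 ± 0.21) and Jup (plakoglobin) from 94.3, 135 and 78.3 CPM to 327, 358 and 335 CPM (1.73 ± 0.13). The rise of Dsp was larger than in WT FBs by 2.54 ± 0.27 (adjusted p = 1.45e-08). Cdh3 (P-cadherin) fell instead, from 22.9, 35.5 and 21 CPM to 1.04, 2.54 and 0.783 CPM (-4.18 ± 0.26), and Pkp2 fell by 1.57 on the log2 scale. Epcam and Cldn4 had too few counts to be tested.

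Of 15 epithelial transcription factors 8 passed the filter. Of these 3 rose, at low levels, and 2 fell, beside 23.8% higher and 23.6% lower among all tested genes. Grhl3, a factor of the epidermal barrier, reached 4.28, 2.78 and 3.47 CPM from 0.0647, 0.151 and 0.0701 CPM (5.13 ± 0.63), Ehf went from 0 to 1.56, 1.24 and 1.17 CPM and Trp63, which specifies the basal layer, from 1.88, 1.05 and 0.912 CPM to 2.95, 3.79 and 1.85 CPM (1.14 ± 0.40, adjusted p = 0.0183). The call of Trp63 was lost without the second or the third day 0 plus VC library or the second day 2 plus VC library (adjusted p = 0.0659, 0.0875 and 0.106). Klf5 fell from 18.3, 19.7 and 20.8 CPM to 4.69, 4.97 and 5.2 CPM (-1.98 ± 0.25). Grhl2, Ovol1, Ovol2, Elf3, Esrp1 and Tfap2c had too few counts to be tested.

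Markers of keratinocytes moved with these genes. Of 9 tested markers of 10, 8 rose, beside 23.8% higher among all tested genes, and as above the count is a description. The summed level of the markers went from 39.7 to 44.9 CPM at day 0 plus VC to 1214 to 1323 CPM at day 2 plus VC. Most of that sum was Itgb4, the hemidesmosome integrin chain, which went from 9.25, 12 and 7.85 CPM to 872, 953 and 829 CPM (6.51 ± 0.17). Laminin chain genes of the integrin's ligand rose as well, Lamb3 from 0.841, 0.602 and 0.631 CPM to 55.4, 52 and 66.6 CPM (6.36 ± 0.19) and Lama3 by 4.35 ± 0.42. Itga6, the partner of Itgb4, rose from 25.1, 21.5 and 23.1 CPM to 151, 156 and 154 CPM (2.72 ± 0.13). Krt5, the obligate partner of Krt14 in basal keratinocytes, stayed at 0 in all 3 day 0 plus VC libraries and was at 0, 0.296 and 0 CPM at day 2 plus VC, and Dsg3 had too few counts to be tested. WT FBs with VC showed a summed marker level of 23.4 to 26.8 CPM at day 0 and 264 to 323 CPM at day 2. The part of other cells in the epithelial genes was not tested.

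Mesenchymal regulators came next. Of 15 such transcription factors and cadherins 8 fell and 3 rose, beside 23.6% lower and 23.8% higher among all tested genes, with a median log2 fold change of -0.34. Osr1, a fibroblast progenitor factor, fell from 47.8, 54.8 and 41.7 CPM to 10.6, 11.8 and 8.89 CPM (-2.20 ± 0.16). Snai1, a repressor of Cdh1, fell from 146, 176 and 134 CPM to 65.6, 74.2 and 64.2 CPM (-1.16 ± 0.21), Twist2 fell by 1.75 and Snai2 fell by 0.44. Cdh2 (N-cadherin, -0.69 ± 0.13) and Cdh11 (-0.70 ± 0.10) also fell. Twist1 was at 169, 185 and 213 CPM before and 199, 178 and 189 CPM after (adjusted p = 0.982) and Zeb1 and Zeb2 had log2 fold changes of -0.27 ± 0.12 and -0.34 ± 0.15 (adjusted p = 0.0548 and 0.057, but under the threshold with DESeq2 for Zeb1, at 0.048, and without a filter for Zeb2, at 0.0185). Tcf4, a partner of Twist factors, rose by 0.50 ± 0.10. Snai2 lost its call when scaled by library totals, under which 5 members fell.

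Fibroblast identity genes split. Of 16 tested, 9 fell and 5 rose, beside 23.8% higher and 23.6% lower among all tested genes, and against day 0 without VC 8 were higher and 6 lower. Pi16, a marker of adventitial universal fibroblasts, rose from 1.49, 1.51 and 0.631 CPM to 1019, 874 and 922 CPM (9.59 ± 0.33) and Cd34, found in the same cells, from 41.3, 55.2 and 33 CPM to 542, 545 and 515 CPM (3.63 ± 0.13). Thy1 (1.26 ± 0.12), Ly6a, the gene of Sca-1 (0.86 ± 0.18), and Vim (0.66 ± 0.13) rose too. The growth factor receptor Pdgfra fell from 701, 748 and 695 CPM to 228, 225 and 200 CPM (-1.71 ± 0.12) and Pdgfrb fell by 1.20. The small proteoglycan gene Lum fell from 927, 946 and 874 CPM to 208, 198 and 178 CPM (-2.23 ± 0.14) and Dpt, which organises collagen fibrils, from 908, 724 and 590 CPM to 228, 225 and 165 CPM (-1.85 ± 0.23). The starting point matters for these. Without VC, day 0 cells held 152 ± 27.6 CPM of Lum, 101 ± 39.5 CPM of Dpt and 527 ± 178 CPM of Dcn (SD, n = 3), and against that baseline the day 2 plus VC cells were higher for all 3 (0.35 ± 0.13, 1.03 ± 0.22 and 1.14 ± 0.17 on the log2 scale), whereas against day 0 plus VC the log2 fold change of Dcn was -0.43 ± 0.17 (adjusted p = 0.0361). That last call was lost when scaled by library totals and without 4 of the 6 libraries in turn (adjusted p of 0.0524 to 0.137, all but the second of day 0 and the first of day 2).

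The extracellular matrix held the greatest losses in absolute level. Col1a1, the main chain of type I collagen, fell from 103807, 164534 and 139302 CPM to 25796, 27853 and 26735 CPM (-2.34 ± 0.17). Per length it went from 69097 to 14380 transcripts per 1000000 (TPM). Col1a2 went from 47805, 54851 and 52388 CPM to 17337, 16227 and 16968 CPM (-1.62 ± 0.14). The fibril collagens Col3a1 (-1.19 ± 0.18) and Col5a2 (-1.85 ± 0.19), Col12a1, which coats fibrils (-2.37 ± 0.21), and Col7a1, the anchoring fibril collagen (-2.59 ± 0.18), all fell without overlap between the groups. In all, 17 of 20 collagen chains fell and 2 rose, against 23.6% and 23.8% of all tested genes, with a median of -1.20. The 2 that rose were Col15a1, from 27.6, 28.8 and 23.4 CPM to 77, 52 and 60.5 CPM (1.25 ± 0.15), and the basement membrane chain Col4a2 (0.29 ± 0.12, adjusted p = 0.036). Without the first or second library of day 0 or the first or the third of day 2, Col4a2 was not called (adjusted p of 0.0582 to 0.181). Against day 0 cells without VC both were lower (-2.38 ± 0.15 and -0.42 ± 0.12 on the log2 scale).

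Enzymes and partners of collagen followed. Of 22 collagen processing and crosslinking genes 19 fell, beside 23.6% of all tested genes, and 2 rose (1 without the first or second day 0 or the second or the third day 2 plus VC library). Lox, the lysyl oxidase that crosslinks fibrils, fell from 6606, 8276 and 8475 CPM to 1110, 1304 and 1204 CPM (-2.69 ± 0.13). P4ha2 (-1.89 ± 0.14) and P4ha3 (-1.98 ± 0.13), chains of the ascorbate-dependent prolyl hydroxylase, Serpinh1, the collagen chaperone (-1.30 ± 0.11), and Loxl1 (-1.54 ± 0.10) fell too, as did P4ha1 (-0.71 ± 0.090) and the lysyl hydroxylase gene Plod2 (-0.82 ± 0.17). Of 17 elastic fibre and matricellular genes 14 fell, among them Postn from 4519, 3590 and 4252 CPM to 488, 363 and 417 CPM (-3.28 ± 0.20), Tnc (-3.21 ± 0.20), Sparc (-1.37 ± 0.10), Thbs1 (-2.07 ± 0.15), Thbs2 (-2.49 ± 0.10) and the growth factor-like Ccn2 (-0.59 ± 0.18). Elastin went the other way. Eln rose from 8.22, 4.74 and 2.52 CPM to 155, 110 and 54.3 CPM (4.35 ± 0.37), with a wide spread at both days but no overlap, and the fibre-associated Ltbp4 rose by 1.34 ± 0.16. Among 18 proteases and inhibitors 12 fell, including the plasminogen activator Plat (-2.59 ± 0.14) and Mmp14 (-1.15 ± 0.11), and the only one to rise was Timp3, from 262, 304 and 286 CPM to 1051, 973 and 827 CPM (1.74 ± 0.18). Mmp2 (-0.53), Mmp3 (-0.75), Mmp13 (-0.83) and the urokinase gene Plau (-0.78) fell by less, and Timp1 was at -0.18 (adjusted p = 0.435). The calls of Mmp3 and Ccn2 were lost when scaled by library totals and without a single library, for Mmp3 the third of day 0 (adjusted p = 0.138) and for Ccn2 the third of day 2 (adjusted p = 0.0946).

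**Figure D2:**
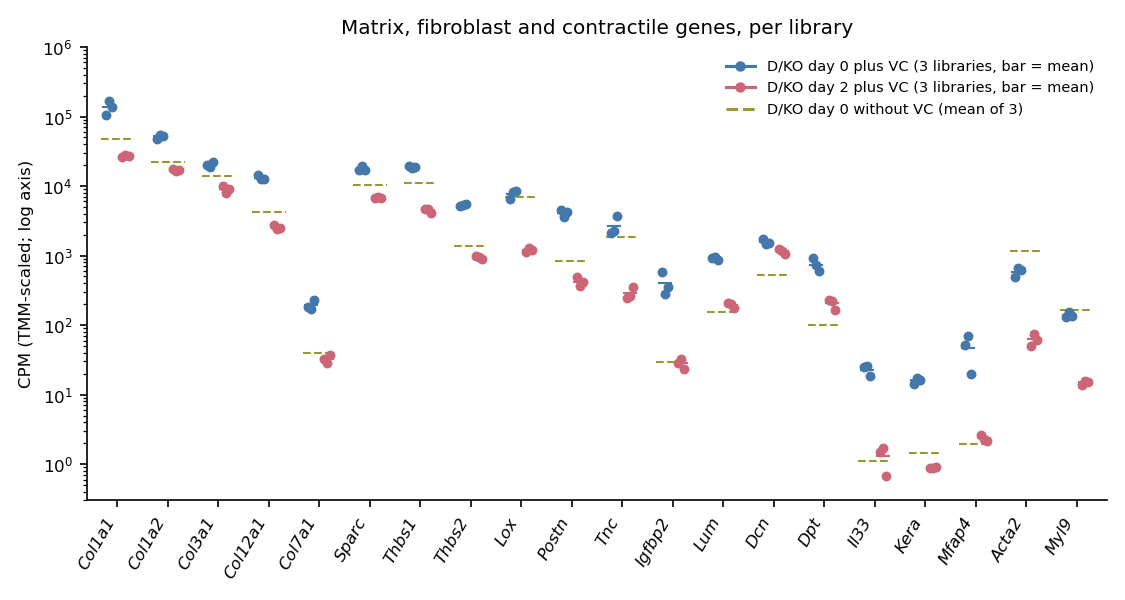
Level per library of 20 matrix, fibroblast and contractile genes in CPM on a log axis, for D/KO FBs at day 0 plus VC and day 2 plus VC (points, with bars for the means) and at day 0 without VC (dashed line, mean of 3 libraries). Every gene is lower at day 2 plus VC than at day 0 plus VC, and for Igfbp2, Lum, Dcn, Dpt, Il33, Kera and Mfap4 the level without VC lies close to or below that at day 2 plus VC.

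The size of the fall depended on the baseline for some of this matrix. Col1a1 was at 47542 ± 10452 CPM (SD, n = 3) in day 0 cells without VC, and against them the log2 fold change of the day 2 plus VC cells was -0.83 ± 0.16 (adjusted p = 4.55e-05). The corresponding values were -0.41 ± 0.14 for Col1a2, -0.60 ± 0.18 for Col3a1, -0.58 ± 0.10 for Sparc and -2.53 ± 0.13 for Lox. That baseline shares the day 2 plus VC libraries with the main comparison and left 16 of the 20 collagen chains lower and 1 higher. It left 9 of 17 elastic fibre and matricellular genes, 14 of 22 collagen processing genes and 10 of 20 cytokine and growth factor genes lower. Over all tested genes it called 3684 higher (23.3%) and 3701 lower (23.4%), and 5102 genes (68% of the 7508) were called in the same direction with both baselines. Of the genes named in this text, Timp3, Col7a1, Krt19, Klf5, Cxcl1, Cxcl5, Inhba, Mmp3, Cdkn1c, Hmox1, C4b, Insig1, Prkdc, Apex1, Ccng1, Hoxa13 and Nptx1 lost their call against that baseline, with adjusted p from 0.0677 (Insig1) to 0.798 (Ccng1), and Nkd2, Tgfbi, Mmp2 and C2, which fell from day 0 plus VC, were higher against it (0.96, 0.34, 0.49 and 1.32).

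Among the steepest falls, some were of this kind and others not. Thbs4, a matricellular gene of tendon and vessel wall, went from 15.5, 16.9 and 10 CPM to 1.1, 0.296 and 0.224 CPM (-4.69 ± 0.39) and stood at 7.96 ± 4.39 CPM in day 0 cells without VC, so that it fell from either baseline (-3.86 against the latter). Klc3, a kinesin light chain opposite Ercc2 on the other strand, fell from 5.56, 7.53 and 4.63 CPM to 0.347, 0.296 and 0.168 CPM (-4.42 ± 0.45). Hgf, the ligand of Met, was at 26.1, 26.1 and 26.1 CPM at day 0 plus VC and 2.49, 1.12 and 1.51 CPM at day 2 plus VC (-3.93 ± 0.25), and Plxnc1, a semaphorin receptor, fell by 4.06 ± 0.18. For these and for Cdh3 and Cxcl15 the fall was called with both baselines. By contrast, Il31ra, a cytokine receptor that shares its strand with Gm3226, fell from 11.1, 7.15 and 9.4 CPM to 0.926, 0.237 and 0.112 CPM (-4.42 ± 0.41) and was at 0.708 ± 0.159 CPM without VC (log2 fold change against that baseline -0.73, adjusted p = 0.259). Igfbp2, an IGF carrier, fell from 572, 281 and 354 CPM to 28.3, 32.6 and 23.7 CPM (-3.84 ± 0.26) and was at 29.5 ± 11.1 CPM without VC (-0.065, adjusted p = 0.851). The alarmin Il33 (-4.15 ± 0.32), the corneal proteoglycan gene Kera (-4.18 ± 0.49) and Mfap4 of elastic fibres (-4.30 ± 0.35) had levels without VC of 1.11 ± 0.27, 1.44 ± 1.44 and 1.97 ± 1.12 CPM, and none of the 3 was called against that baseline (adjusted p = 0.681, 0.283 and 0.642). Aldh1a7 fell by 3.86 ± 0.40.

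The upstream windows of the 3 steepest falls among called protein coding genes without overlap and with at least 5 CPM at day 0 plus VC are given in the same way and with the same 8 motifs in capitals, since these genes lost most of their counts. They are Thbs4 at chr13:92931327-92931576, Il31ra at chr13:112717197-112717446 and Klc3 at chr7:19138056-19138305, all on the minus strand of GRCm39, and the deposited table has a further Il31ra start upstream of the one used, at chr13:112730894.
Thbs4: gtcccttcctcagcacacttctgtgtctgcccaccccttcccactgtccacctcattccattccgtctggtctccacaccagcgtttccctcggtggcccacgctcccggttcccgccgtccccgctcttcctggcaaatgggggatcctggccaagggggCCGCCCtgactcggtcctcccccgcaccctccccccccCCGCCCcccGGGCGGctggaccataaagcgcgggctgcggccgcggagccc
Il31ra: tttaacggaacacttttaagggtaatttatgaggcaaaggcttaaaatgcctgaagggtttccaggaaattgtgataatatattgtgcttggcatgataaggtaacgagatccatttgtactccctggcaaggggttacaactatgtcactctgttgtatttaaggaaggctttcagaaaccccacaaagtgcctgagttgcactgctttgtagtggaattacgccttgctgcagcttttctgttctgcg
Klc3: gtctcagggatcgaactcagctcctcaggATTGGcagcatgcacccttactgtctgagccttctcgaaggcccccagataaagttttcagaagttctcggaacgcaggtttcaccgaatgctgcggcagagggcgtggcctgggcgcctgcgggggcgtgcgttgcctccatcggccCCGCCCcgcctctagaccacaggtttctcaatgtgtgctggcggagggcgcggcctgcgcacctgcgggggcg
The Thbs4 window held GGGCGG at 89 and 51 bases before the start on the opposite strand and at 42 on the sense strand. The Il31ra window held none of the 8 motifs, and that of Klc3 held GGGCGG at 73 and CCAAT at 221, both on the opposite strand.

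Contractile genes fell in 15 of 17 members and none rose, beside 23.6% lower among all tested genes, while scaled by library totals 11 fell and 1 rose. Acta2, the smooth muscle actin of myofibroblasts, went from 484, 653 and 615 CPM to 50.5, 74 and 62 CPM (-3.23 ± 0.18), Myl9 from 130, 153 and 136 CPM to 13.8, 15.8 and 15.3 CPM (-3.22 ± 0.17) and Cnn1 (calponin) from 36.9, 40.6 and 61.5 CPM to 2.08, 3.79 and 4.03 CPM (-3.81 ± 0.31). Tagln fell by 2.72 from a low level. Actg2 had a log2 fold change of 0.42 ± 0.20 (adjusted p = 0.0811) and was called higher when scaled by library totals (0.69) and without the second day 0 or the first day 2 plus VC library (0.55 and 0.56). Here the day 0 cells without VC were not below those with VC, with 1157 ± 323 CPM of Acta2, and against them 17 of 17 members were lower.

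TGFb signalling, which drives matrix and contractile genes in FBs, has targets of its own. Of 10 TGFb targets 5 fell and 1 rose, 60% in all beside 47.4% of all tested genes, or 4 and 3 when scaled by library totals, and 2 rose without the second or the third day 0 plus VC library. Tgfbi fell by 0.48 on the log2 scale, while Klf10, an early response gene, rose from 38.8, 36.4 and 27.3 CPM to 124, 125 and 101 CPM (1.77 ± 0.15). Pmepa1, a feedback inhibitor, fell by 1.02, and the inhibitor genes Smad7 (-0.16, adjusted p = 0.324) and Skil (0.33, adjusted p = 0.113) were not called. Of 27 ligands, receptors and transducers of the TGFb and BMP pathways 13 fell and 1 rose, 51.9% in all beside 47.4% of all tested genes, or 8 and 6 when scaled by library totals. The ligand genes Tgfb3 (255, 261 and 234 CPM to 47.2, 48.2 and 43.9 CPM, -2.43 ± 0.11) and Tgfb1 (-1.59 ± 0.13), the activin chain gene Inhba (-1.26 ± 0.16) and the transducer gene Smad3 (-0.40 ± 0.11) were among those that fell. The receptor genes Tgfbr1 and Tgfbr2, the ligand genes Tgfb2 and Bmp4 and the BMP antagonist gene Grem1 had log2 fold changes of -0.10, 0.048, 0.28, -0.17 and 0.17 and were not called. Smad3 lost its call when scaled by library totals and without the second day 0 plus VC library (adjusted p = 0.0507). The BMP target Id1 rose by 1.52 ± 0.29 and Smad6 fell by 0.62, Id2 and Id3 were not called (-0.10 and -0.23), while of 9 BMP targets 2 rose (1 without the first or second day 0 or the third day 2 plus VC library) and 3 fell, and their median of -0.23 turned to 0.03 when scaled by library totals.

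Genes that beta-catenin induces, listed here as Wnt feedback targets whether or not they damp the pathway, depended on the starting point. Axin2, the standard readout, was at 0.219 ± 0.0833 CPM (SD, n = 3) in day 0 cells without VC and at 33.8, 24.1 and 32.3 CPM with VC, and fell to 7.87, 9.05 and 13.5 CPM at day 2 plus VC (-1.57 ± 0.22). Against day 0 without VC the same day 2 libraries were higher by 5.47 ± 0.38. Nkd2 went from 130, 95.9 and 156 CPM to 17.6, 17.2 and 33.9 CPM (-2.47 ± 0.25), Nkd1 fell by 2.96 ± 0.35 and the R-spondin receptor gene Lgr5 fell as well (-2.92 ± 0.24). Other members rose, among them Lgr6 from 2.39, 3.31 and 3.16 CPM to 39.4, 38.1 and 39.1 CPM (3.72 ± 0.27), Tcf7 (2.54 ± 0.27), Apcdd1 (0.93 ± 0.11), Znrf3 (0.76 ± 0.19) and the cyclin gene Ccnd1 from 358, 471 and 290 CPM to 1630, 1710 and 1616 CPM (2.15 ± 0.12). Lef1 was not called (-0.91, adjusted p = 0.124) and Sp5 was at -1.32 (adjusted p = 0.0499), which was lost without any of 5 libraries in turn, all but the first of day 0 (adjusted p of 0.0836 to 0.131). In all 5 of 15 rose and 7 fell, beside 23.8% higher and 23.6% lower among all tested genes, with a median of -1.32, or -1.11 without Rnf43, which had at most 3 counts in either group, and 8 were higher and 4 lower against day 0 without VC. The change differed from that without VC for Axin2 by -3.70 ± 0.55 (adjusted p = 8.11e-06), for Nkd2 by -2.92 ± 0.36 (adjusted p = 3.06e-07) and for Lgr6 by 2.93 ± 0.37 (adjusted p = 4.78e-07).

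Genes of ribosome production rose almost without exception. Of 25 ribosome biogenesis genes 24 rose and none fell, beside 23.8% higher and 23.6% lower among all tested genes. Their median was 1.12. The nucleolar chaperone gene Npm1 went from 412, 410 and 513 CPM to 1571, 1621 and 1653 CPM (1.86 ± 0.11) and nucleolin (Ncl) from 312, 235 and 369 CPM to 639, 620 and 886 CPM (1.23 ± 0.15). Dkc1, the pseudouridine synthase of box H/ACA particles, rose by 1.66 ± 0.13, the methyltransferase gene Fbl by 1.17 ± 0.12 and the RNA polymerase I subunit genes Polr1a by 1.13 ± 0.11 and Polr1b by 1.37 ± 0.13, and the nucleolar Nolc1 by 1.06 ± 0.12. Gar1 was the exception (0.10 ± 0.17, adjusted p = 0.662). In 22 of the 25 genes the change was larger with VC than without, where 6.83% of all tested genes showed such a difference and the median without VC was 0.26. For Npm1 the difference was 1.37 ± 0.15 (adjusted p = 5.04e-08). In 18 of the 25 genes it was larger than in WT FBs with VC, against 6.85% of all tested genes.

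**Figure D3:**
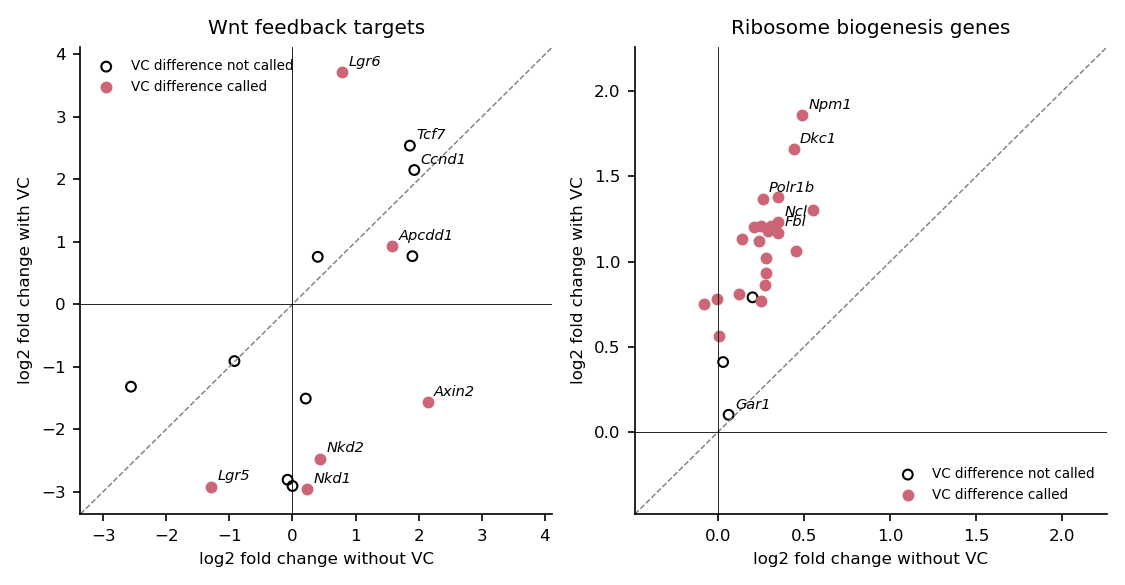
Log2 fold change from day 0 to day 2 in D/KO FBs with VC (vertical axis) against that without VC (horizontal axis), 1 point per gene, for 15 Wnt feedback targets and 25 ribosome biogenesis genes. Filled points passed the test of the difference between both changes and the dashed line marks equal change. Axin2, Nkd1 and Nkd2 lie below the line and Lgr6 above it, while the 25 ribosome biogenesis genes lie above it.

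The 8 largest gains in mean CPM included genes of translation and chaperones beside Vim, Aldh3a1 and Emp1. Eef1a1, the elongation factor that brings tRNA to the ribosome, rose from 9320, 12528 and 12402 CPM to 17505, 18497 and 16698 CPM (0.62 ± 0.13) and Eef2, which moves the ribosome, from 3692, 5649 and 3937 CPM to 8681, 8886 and 8835 CPM (0.99 ± 0.16). The poly(A)-binding protein gene Pabpc1 rose by 1.27 ± 0.12 and the chaperone genes Hsp90ab1 and Hspa8 by 1.25 ± 0.087 and 1.33 ± 0.12. Aldh3a1, an aldehyde dehydrogenase of cornea and stressed epithelia, stood out among abundant genes. It rose from 17.9, 22.4 and 19.6 CPM to 3655, 3804 and 4218 CPM, a 195-fold difference of means (7.61 ± 0.22), and from 34.5 to 7068 TPM. The rise exceeded that in WT FBs by 2.34 ± 0.25 (adjusted p = 1.48e-08) and had a difference of 0.51 ± 0.26 from that without VC (adjusted p = 0.208). Emp1, an epithelial membrane protein gene, rose from 891, 1057 and 721 CPM to 3292, 3304 and 2893 CPM (1.83 ± 0.12).

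Cell cycle genes were counted in the same way. Of 37 replication genes 20 rose and 1 fell (median 0.51), and of 24 mitosis genes 14 rose and none fell (median 0.62), beside 23.8% higher and 23.6% lower among all tested genes. Against day 0 without VC 28 and 22 were higher. The helicase subunit gene Mcm5 went from 13.5, 14.7 and 12.6 CPM to 26.7, 30.7 and 35.3 CPM (1.18 ± 0.17) and Mcm6 rose by 1.22 ± 0.14, Mcm2 by 0.72 ± 0.14, the licensing factor gene Cdc6 by 1.46 ± 0.33 and the nucleotide reductase gene Rrm2 by 0.96 ± 0.20. Ccne1 (cyclin E) was not called (0.19, adjusted p = 0.152). Ccna2 (cyclin A) went from 15.9, 17.8 and 13.5 CPM to 27.3, 35.6 and 28.5 CPM (0.96 ± 0.15) and the proliferation marker Mki67 from 25.6, 16.4 and 19.6 CPM to 51.8, 46.6 and 68.1 CPM (1.43 ± 0.26). Ube2c, which feeds the anaphase-promoting complex, rose by 1.00 ± 0.17, the mitotic kinase gene Plk1 by 0.66 ± 0.17, Ccnb1 (cyclin B) by 0.70 ± 0.18 and the topoisomerase gene Top2a by 0.78 ± 0.15. Aurkb was not called (0.29, adjusted p = 0.306). Cdk1 was at 26, 27.2 and 29.5 CPM and then 26.7, 26.2 and 28.2 CPM (adjusted p = 0.885), and E2f1 was the replication gene that fell (-0.85 ± 0.11).

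The same genes moved differently in the WT line. With VC their medians in WT FBs were -0.43 for replication and -0.97 for mitosis, and the difference between the lines was called higher in D/KO FBs for 21 of 37 and 23 of 24 genes and lower for none, against 6.85% of all tested genes. Ube2c differed by 2.45 ± 0.26 (adjusted p = 1.45e-08), Mcm5 by 2.35 ± 0.24 (adjusted p = 9.21e-09) and Ccna2 by 2.15 ± 0.22 (adjusted p = 6.47e-09). The 2 lines differ in genotype, sex and age, which cannot be told apart. They also differed in the summed level of the 4 factors at day 2 plus VC. It was 775 to 896 CPM in D/KO FBs and 407 to 470 CPM in WT FBs, and its part was not tested.

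**Figure D4:**
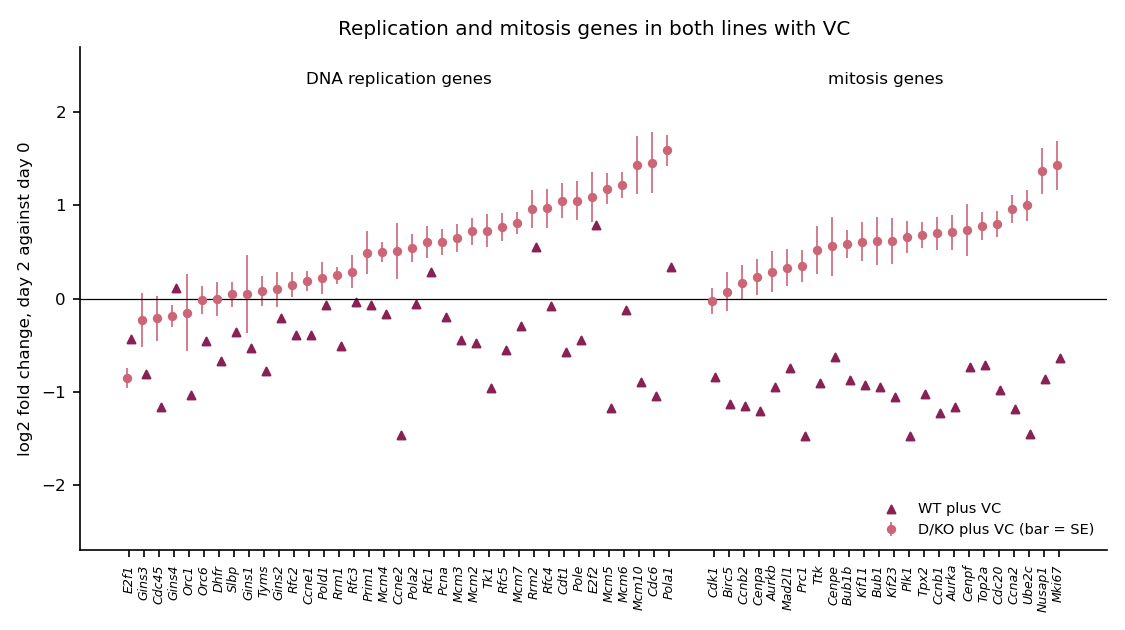
Log2 fold change from day 0 to day 2 with VC for 37 replication and 24 mitosis genes, with circles for D/KO FBs (bars show the SE) and triangles for WT FBs. Within each group genes are ordered by the D/KO value, and for every mitosis gene the WT triangle lies below 0 and below the D/KO circle.

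Inhibitors of the cycle fell from day 0 plus VC. Of 7 cyclin-dependent kinase inhibitor genes 6 fell, beside 23.6% of all tested genes, and none rose, whereas against day 0 without VC 3 were lower and 1 was higher. Their median was -0.80 with VC and 0.11 without. Cdkn2b (p15) went from 123, 145 and 143 CPM to 52.1, 62 and 47.7 CPM (-1.34 ± 0.14) and Cdkn2a, which encodes p16 and p19Arf and is a marker of senescence, from 354, 357 and 367 CPM to 210, 225 and 185 CPM (-0.80 ± 0.15). Cdkn1b (-1.02 ± 0.13) and Cdkn1c (-2.29 ± 0.48) fell as well. Cdkn1a (p21), a direct p53 target, was at 711, 925 and 769 CPM and then 816, 860 and 793 CPM (0.038 ± 0.10, adjusted p = 0.779) and was called higher when scaled by library totals (0.31). Of 18 p53 targets 2 rose and 6 fell, 44.4% in all against 47.4% of tested genes, with Ccng1 at 0.23 ± 0.088. Scaled by library totals 7 rose and 1 fell, and the median turned from -0.039 to 0.22, and against day 0 without VC 6 were higher and 2 lower. Without the second or the third day 2 plus VC library 1 and 4 rose, and Ccng1 was not called without that second library or the first of day 0 (adjusted p = 0.174 and 0.164). Gadd45a fell from 13.6, 14.4 and 18.7 CPM to 3.82, 3.96 and 3.97 CPM (-1.99 ± 0.27), and Mdm2, the p53 ligase, had a log2 fold change of -0.19 ± 0.11 (adjusted p = 0.184).

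The share of called genes in repair lists ran from 26.7% of 15 Fanconi anemia genes to 66.7% of 9 mismatch repair genes. It was 47.4% over all tested genes, and differences between lists were not tested. In nucleotide excision repair 6 of 23 genes rose and 1 fell, a called share of 30.4%, while scaled by library totals 13 rose and without the second day 0 plus VC library 2 fell. Ercc4, the partner of Ercc1, rose from 19, 19.9 and 21 CPM to 27.7, 31 and 35 CPM (0.65 ± 0.11), the damage sensor gene Xpc by 0.84 ± 0.13 and Rpa1, a subunit of the single strand binding protein, by 0.44 ± 0.081. Gtf2h5, a small TFIIH subunit, fell (-0.61 ± 0.13), and Xpa and Ddb2 were not called (0.21 and -0.14). In homologous recombination 8 of 19 rose, beside 23.8% of all tested genes, among them Brca1 from 4.08, 2.86 and 3.51 CPM to 10, 7.46 and 9.4 CPM (1.36 ± 0.23), Brca2 (1.41 ± 0.27) and the nuclease gene Mre11a from 18.6, 17.1 and 19.8 CPM to 38.4, 43 and 46.8 CPM (1.20 ± 0.11), while Xrcc3 fell (-1.53 ± 0.29). Rad54l (0.29) and Rbbp8 (0.069) were not called. In mismatch repair 6 of 9 rose and none fell, with Msh6 at 0.50 ± 0.11 and the exonuclease gene Exo1 at 1.44 ± 0.32.

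Of 15 Fanconi anemia genes 3 rose and 1 fell (26.7% called, and 7 rose when scaled by library totals), among them Fanci (1.21 ± 0.28). Usp1, the deubiquitinase of Fancd2 and Pcna, rose from 24.3, 27 and 31.2 CPM to 190, 178 and 179 CPM (2.73 ± 0.10). Fancf fell by 1.08 on the log2 scale. Of 19 base excision repair genes 3 rose and 3 fell (7 and 0 when scaled by library totals). Without the third day 0 plus VC library 1 of them rose, and without the third day 2 plus VC library 1 fell. Their called share was 31.6%, beside 47.4% of all tested genes, and against day 0 without VC 5 were higher and 1 was lower. Of 12 end joining genes 6 rose and 1 fell (2 without the first day 0 plus VC library), 58.3% in all, and of 8 alternative end joining genes 3 rose. Parp1, the sensor of strand breaks, rose from 47.8, 44.5 and 40.3 CPM to 104, 104 and 118 CPM (1.29 ± 0.10) and Xrcc5 (Ku80) by 1.06 ± 0.11, Xrcc6 (Ku70) by 0.75 ± 0.12, Prkdc, their kinase partner, by 0.96 ± 0.18 and the endonuclease gene Apex1 by 0.66 ± 0.20. Ung (-0.091), Neil3 (0.060), Fen1 (0.61) and Polq (0.56) were not called. Apex1 lost its call without the third day 0 plus VC library (adjusted p = 0.0666).

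Secreted signals declined. Of 20 tested cytokine and growth factor genes 15 fell and 1 rose (median -1.80), against 23.6% lower among all tested genes. Cxcl12, the stromal ligand of Cxcr4, fell from 354, 358 and 251 CPM to 51.9, 53.4 and 38.4 CPM (-2.75 ± 0.16), the macrophage factor gene Csf1 from 1187, 1261 and 1185 CPM to 386, 409 and 382 CPM (-1.63 ± 0.092) and Igfbp5 from 1707, 1953 and 1452 CPM to 506, 373 and 339 CPM (-2.07 ± 0.18). The chemokine genes Cxcl5 (-2.32 ± 0.26), Ccl2 (-1.85 ± 0.24) and Cxcl15 (-4.41 ± 0.41) and the angiogenic factor gene Vegfa (-0.91 ± 0.14) fell too, as did Cxcl1 (-2.26 ± 0.39) and Il11 (-2.12 ± 0.48). Il6 had too few counts to be tested and Gdf15 was not called (0.46, adjusted p = 0.259). Il1rn, the natural antagonist of interleukin 1, was the one that rose (1 of 2 when scaled by library totals), from 1 count in the group to 0.926, 1.48 and 1.73 CPM, a ratio of 59.5 with a 95% counting interval of 10.3 to 2381. The changes of Cxcl12 and Igfbp5 differed from those in WT FBs by -2.36 ± 0.22 and -2.09 ± 0.25 (adjusted p = 8.1e-10 and 2.36e-07).

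Of 20 tested interferon-stimulated genes 20% were called, beside 47.4% of all tested genes, 3 higher and 1 lower (2, 2 and 3 lower without the second or the third day 0 or the second day 2 plus VC library). The nucleic acid sensor gene Zbp1 rose from 5.44, 3.77 and 1.75 CPM to 24, 21.9 and 16.4 CPM (2.50 ± 0.33) and Oas2 from 1 count in the group to 6.65, 10.2 and 2.13 CPM, a ratio of 269 (95% counting interval 48 to 10666). The RNA sensor gene Ifih1 rose by 0.92 ± 0.31 (adjusted p = 0.0138, but 0.0825 without the third day 0 plus VC library and 0.146 without the second day 2 plus VC library), and Gbp2 fell by 0.72. The inducible genes Ifit1 (0.84), Ifit3 (-1.05), Isg15 (-0.16) and Irf7 (0.70) were not called, with adjusted p from 0.137 to 0.872. Without a count filter Ifit1, Ifit3 and Irf7 were called (adjusted p = 0.000846, 2.12e-06 and 0.00244), as was Ifit3 without the third day 0 or the second day 2 plus VC library (adjusted p = 0.0466 and 0.0398). In complement 4 of 12 tested genes rose and 5 fell (3 without the first day 2 plus VC library), beside 23.8% higher and 23.6% lower among all tested genes, with a median of -0.051 that turned to 0.20 when scaled by library totals. Against day 0 without VC 7 were higher and 2 lower, with a median of 0.97. The membrane regulator gene Cd55, which protects cells from complement, rose from 8.86, 5.42 and 6.94 CPM to 157, 133 and 142 CPM (4.34 ± 0.15), and C4b rose by 1.28 ± 0.32. C3, the central component, fell by 1.23 and C2 fell by 1.82.

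Metabolic genes showed one clear group. Of 24 cholesterol synthesis genes 21 rose and 1 fell (median 0.71), beside 23.8% higher and 23.6% lower among all tested genes. Idi1, an early isoprenoid enzyme, went from 12, 13 and 12.8 CPM to 34.1, 34.7 and 34.5 CPM (1.45 ± 0.12), and Mvd rose by 1.44 ± 0.16, Hmgcs1 by 0.65 ± 0.12, Sqle by 0.94 ± 0.087 and Insig1 by 0.85 ± 0.14. Sc5d was the member that fell (-0.43 ± 0.14), a call lost when scaled by library totals and without the first day 2 plus VC library (adjusted p = 0.0663). The medians without VC and in WT FBs were close to it, at 0.57 and 0.72. Of 18 glycolysis genes 6 rose, including Aldoc (1.75 ± 0.18), and 2 fell, including the glucose carrier gene Slc2a1 (-1.15 ± 0.15), a called share of 44.4% beside 47.4% of all tested genes. Scaled by library totals 13 rose and 1 fell, without the second day 0 plus VC library 1 fell, and against day 0 without VC 3 were higher and 4 lower. Hk2 (-0.24), Pgk1 (0.22), Ldha (0.24) and Pdk1 (0.12) were not called. Of 11 NRF2 targets 6 rose and 4 fell, beside 23.8% higher and 23.6% lower among all tested genes, and against day 0 without VC 6 were higher and 1 was lower. There were 2 that fell when scaled by library totals and without any one of the third day 0 plus VC and the first and second day 2 plus VC libraries. The glutathione transferase gene Gsta4 went from 58.7, 66.5 and 79.8 CPM to 305, 307 and 280 CPM (2.12 ± 0.16) and Nqo1 rose by 1.47 ± 0.18 and Gclm by 0.26 ± 0.10, while Hmox1, which degrades heme, fell by 1.27 and the cystine carrier gene Slc7a11 fell by 0.94. The call of Gclm was lost without any of 4 libraries in turn, the first and second of day 0 and the second and the third of day 2 (adjusted p of 0.0596 to 0.162).

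Chromatin and Hox lists had called shares of 33.3 to 61.5% beside 47.4% of all tested genes. Of 13 Polycomb genes 7 rose, with the methyltransferase gene Ezh2 going from 9.84, 9.56 and 10.6 CPM to 20.9, 18.2 and 19.3 CPM (0.96 ± 0.18) and Epop, Ezh1 and Suz12 rising by 1.89 ± 0.29, 0.73 ± 0.12 and 0.49 ± 0.14. The demethylase gene Kdm6b fell by 0.54, which was not called when scaled by library totals. Of 9 DNA methylation and Tet genes 1 rose, the maintenance factor gene Uhrf1 (0.81 ± 0.16), and 2 fell, Tet3 among them (-0.42 ± 0.17), a call lost when scaled by library totals and without the third library of day 0 or the first or second of day 2 (adjusted p = 0.489, 0.0963 and 0.149). Without the second day 2 plus VC library none of the 9 fell. Dnmt1 (0.22), Dnmt3a (-0.41), Dnmt3b (-0.17), Tet1 (-0.44) and Tet2 (-0.65) were not called. Of 19 heterochromatin enzyme genes 6 rose, with Setdb1 at 0.32 and Cbx5 at 0.51, and 1 fell (0 to 3 when 1 library was left out), while Suv39h1 (0.055), Suv39h2 (0.38), Ehmt2 (-0.14), Kdm3a (0.28) and Kdm4c (0.31) were not called. Of 14 AP-1 and immediate early genes 4 rose, among them Fos (1.19 ± 0.33) and Egr1 (0.46 ± 0.19), and 4 fell, among them Atf3 (-1.24 ± 0.35). Fosl1 (-0.52), Jun (-0.045) and Junb (0.37) were not called. Setdb1 was not called without the second day 2 library (adjusted p = 0.0541), Atf3 without the first day 0 library (adjusted p = 0.101) and Egr1 without the first or the third of day 0 or the first or second of day 2 (adjusted p of 0.063 to 0.264). Posterior Hox genes, which mark the tail origin of these cells, fell in 7 of 15 tested members (4 without the first day 2 plus VC library and 3 when scaled by library totals), among them Hoxb13 from 62.5, 85.4 and 64.9 CPM to 25.5, 30.4 and 27.5 CPM (-1.35 ± 0.12) and Hoxb9 (-1.67 ± 0.14), while Hoxa9 rose (0.72 ± 0.21). Hoxc13 (-0.47) fell, a call lost when scaled by library totals. Hoxa13 (-0.32) lost its call with that scaling and without 5 of the 6 libraries in turn, all but the first of day 0 (adjusted p of 0.0555 to 0.112), and Hoxc10 (0.092) and Hoxd13 (0.67) were not called.

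**Figure D5:**
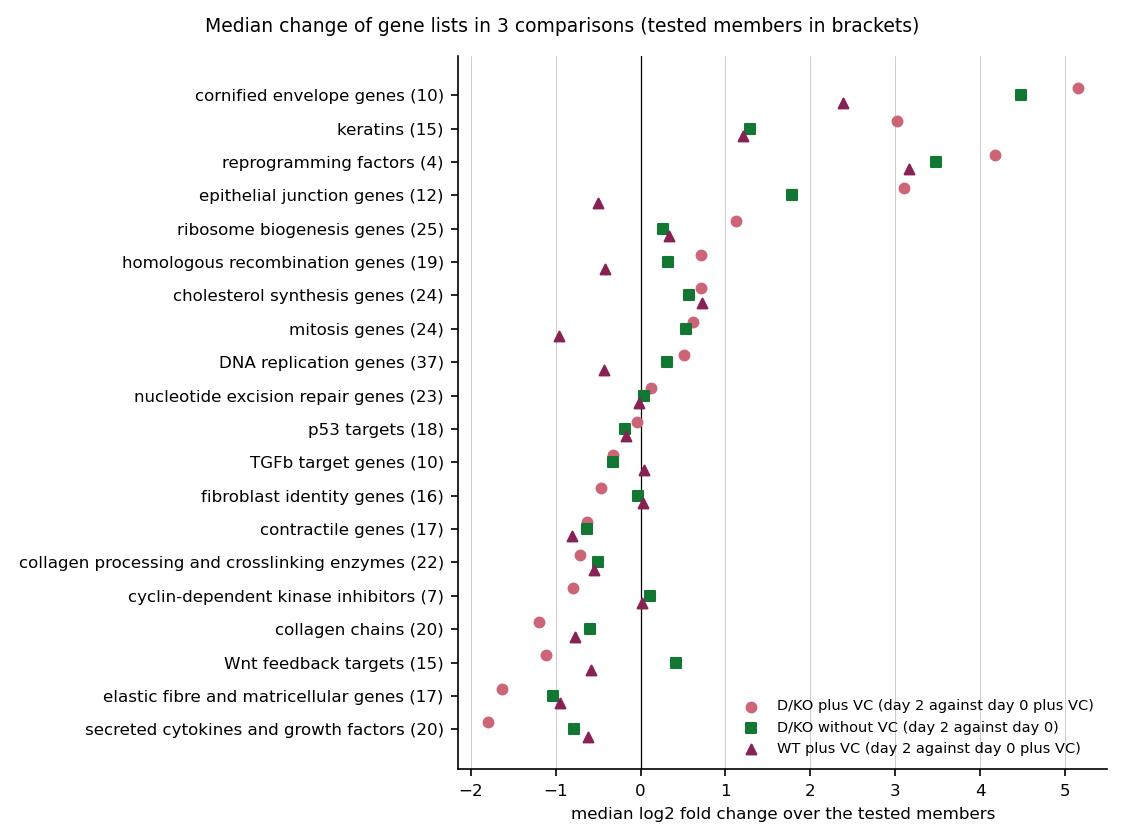
Median log2 fold change over the tested members of 20 gene lists (number of members in brackets) from day 0 to day 2, for D/KO FBs with VC (circles), D/KO FBs without VC (squares) and WT FBs with VC (triangles), with members at 0 in a group set to their bound. The ribosome biogenesis circle lies at 1.12 against 0.26 and 0.33, and the mitosis circle at 0.62 against a WT triangle below 0.

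Markers of other cells were checked for the label, and their counts stand beside 23.8% higher and 23.6% lower among all tested genes. The defining FB markers were present in all 6 libraries, with Col3a1 at 20398, 19081 and 22424 CPM and then 9949, 8042 and 9196 CPM and Vim at 7232, 10407 and 8158 CPM and then 12864, 14200 and 13640 CPM. Endothelial markers were present, at a summed 289 to 330 CPM at day 0 plus VC and 237 to 276 CPM at day 2 plus VC, and of 8 such genes 5 fell and 1 rose. Pecam1 was at 78.9, 69.7 and 70 CPM and then 77.1, 65.7 and 75.1 CPM, Cdh5 (VE-cadherin) fell from 112, 116 and 82.5 CPM to 38.1, 31.1 and 36.1 CPM (-1.56 ± 0.18), Kdr fell by 1.52 and Tek (Tie2) rose from 7.76, 8.96 and 10 CPM to 88.1, 84.3 and 82.4 CPM (3.25 ± 0.12). Plvap, also an endothelial gene, had 0.362 ± 0.211 CPM in WT FBs at day 0 plus VC against 87, 102 and 80.4 CPM in D/KO FBs. In WT FBs with VC the endothelial markers summed to 6.57 to 8.02 CPM at day 0 and 95.8 to 102 CPM at day 2. The leukocyte markers summed there to 75.4 to 127 CPM and 68.4 to 77.9 CPM. The lines thus did not start at like levels in Plvap or in either marker list. Leukocyte markers summed to 14.5 to 15.6 CPM before and 12.4 to 15 CPM after, and of 8 such genes 1 rose and 2 fell (2 and 1 without the third day 0 plus VC library, and 1 fell without any one day 2 plus VC library). Csf1r (-2.60 ± 0.37) fell, Ptprc went from 0, 0.0753 and 0.351 CPM to no count, Cd14 rose from 3.43, 4.74 and 2.45 CPM to 8.8, 7.99 and 7.83 CPM (1.22 ± 0.21) and Adgre1 was not called (0.63). Those of cartilage, bone and tendon summed to 109 to 114 CPM and then 65.4 to 69.3 CPM, and of 9 such genes 1 rose and 4 fell, with a median of 0.23. Tnmd fell (-1.57 ± 0.13) and Bglap went from 0 to 0.463, 0.651 and 0.112 CPM, with Col2a1 and Sp7 not called (0.69 and 0.41) and Acan too low to be tested. Of 6 tested Schwann cell markers none was called (2 without the third day 0 and 1 without the first or second day 2 plus VC library), and Sox10 was under 1 CPM on average. Of the markers of skeletal muscle, adipocytes and melanocytes 2 each were tested. Myod1, Myog, Plin1, Tyr and Dct had no count in the 6 libraries, Adipoq was too low to be tested, and Fabp4 (-2.93 ± 0.32) and Pmel (-1.32 ± 0.42) fell, the latter not without the second day 2 library (adjusted p = 0.0583). The part of these cells in the results was not tested.

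The test of the VC difference asked directly where the first 2 days differed with and without VC in D/KO FBs. It called 1081 genes with a more positive change with VC (6.83%) and 1208 with a more negative one (7.63%), 14.5% in all, or 1950 and 818 when scaled by library totals. Among the 6 largest positive differences of genes that also changed with VC and averaged at least 5 CPM in some group were those of Nptx1, a neuronal pentraxin (5.39 ± 0.57), Tenm4, a teneurin (5.10 ± 0.27), Atp2a3, a calcium pump of the reticulum (4.71 ± 0.60), and Acsbg1, an acyl-CoA synthetase (4.28 ± 0.53). Tenm4 was at 33.5 ± 4.71 CPM and 34.8 ± 2.88 CPM (SD, n = 3) at day 0 and day 2 without VC, at 1.75, 2.03 and 1.26 CPM at day 0 plus VC and at 66.2, 57.9 and 55.9 CPM at day 2 plus VC. Nptx1 went from 4.92 ± 0.459 CPM and 3.92 ± 1.2 CPM without VC to 0.259, 0.226 and 0.0701 CPM and 5.84, 7.28 and 6.21 CPM with VC. The 6 largest negative differences by the same rule included Gna14, a G protein subunit with 3 counts at day 0 without VC (-4.92 ± 0.68), Cxcl15 (-3.99 ± 0.55), Adamts17 (-4.12 ± 0.73) and Matn4 (-3.98 ± 0.48), which overlaps Slpi on the same strand. The other two were Cyp4f39 and Fam180a, which had no count at day 0 without VC and therefore a difference of no fixed size. They went to 6.33 ± 0.612 CPM and 16.7 ± 1.65 CPM at day 2 without VC (SD, n = 3), and with VC from 0.518, 1.81 and 0.631 CPM to 11.3, 20.1 and 18.2 CPM and from 1.23, 0.828 and 0.491 CPM to 56.6, 59.4 and 59.1 CPM. Igfbp2 differed by -3.28 ± 0.35 and Il33 by -3.18 ± 0.58, both falls with VC from a level that the cells without VC did not have. The changes of Itga6 and Itgb4 of the hemidesmosome were more positive with VC, by 2.73 ± 0.18 and 2.31 ± 0.20. Among collagen chains the difference was called negative for 12 of 20, and among contractile genes for 6 of 17.

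The test of the line difference compared the same 2 days with VC between D/KO and WT FBs. The lines started at unlike levels of endothelial and leukocyte markers, as given above. The part of such cells in these differences was not tested. It called 1085 genes with a more positive change in D/KO FBs (6.85%) and 1109 with a more negative one (7%), 13.9% in all, or 1733 and 737 when scaled by library totals. The largest positive difference by the same rule was that of Laptm5, a lysosomal membrane protein (7.63 ± 0.62), which went from 0.0647, 0.0753 and 0.491 CPM to 52.7, 58 and 38.4 CPM in D/KO FBs and from 4.65 ± 0.569 CPM to 5.4 ± 1.09 CPM in WT FBs. Slc6a12, a betaine and GABA transporter (6.71 ± 0.94), and Cyp2s1, an epithelial cytochrome P450 (6.13 ± 0.87), reached 26.4, 26.7 and 27.2 CPM and 71.9, 72.1 and 51.3 CPM in D/KO FBs against 0.874 ± 0.412 CPM and 1.68 ± 0.264 CPM in WT FBs. Pitpnm3 went from no count to at least 8-fold more in D/KO FBs. The 6 largest negative differences were those of Egfl6, which had 1.36, 1.28 and 0.982 CPM at day 0 plus VC and no count at day 2 plus VC in D/KO FBs (at least 20.9-fold lower), Plvap (-5.15 ± 0.39), Rapgef4, which had no count in WT FBs at day 0 plus VC, Wnt16 (-4.50 ± 0.97, with 2 counts in the D/KO day 2 plus VC group), Grap, an adaptor protein (-4.19 ± 1.15), and Card10 (-3.82 ± 0.41), which rose in both lines, from 5.44, 7.3 and 5.12 CPM to 12.8, 10.1 and 7.94 CPM in D/KO FBs and from 0.491 ± 0.239 CPM to 12 ± 3.36 CPM in WT FBs. The 2 counts of Wnt16 were in the second library, without which its fitted difference was -7.18. The difference of Grap, which had 2 counts in WT FBs at day 0 plus VC, rested on one library, with an adjusted p of 0.326 without the first WT day 2 plus VC library. The change of Thbs1 was more negative in D/KO FBs (-1.49 ± 0.20), as was that of 12 of 20 collagen chains.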

How the data were processed

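Polyadenylated RNA of the cells was sequenced as 150 bp paired reads on a NovaSeq 6000. Per the labels and the study's methods, the authors trimmed reads with Trim Galore, checked them with FastQC, aligned them with HISAT2 to GRCm39 and counted them per gene with featureCounts of the Subread package. Versions, strand setting and handling of reads with several matches are not given in the sources used here. The table of 56980 genes and 36 libraries holds the raw count per gene as deposited, not normalised, with the gene lengths used here for TPM. A second table, of a TGFb experiment, was not used.

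Each of the 12 groups named in the labels holds 3 libraries. One model over all 36 libraries, with a coefficient per group, was fitted in edgeR 4.0.16 (R 4.3.3) with TMM scaling after the low count filter (minimum count 10, total 15), which left 15832 genes and 24 residual degrees of freedom (common biological coefficient of variation 0.132). Contrasts were tested with the quasi-likelihood F-test, adjusted by the Benjamini-Hochberg method over all tested genes, with 0.05 as the threshold. All adjusted p-values are of this kind and cover the spread between libraries. Values after ± are SE for log2 fold changes and SD (n = 3) for CPM, and CPM triples give libraries 1, 2 and 3 of a group. The SE was taken as the log2 fold change over the root of its F value. The VC and line differences are interaction contrasts of 4 groups. For a gene without a count in a group, the fold is a bound against 3 counts over the group (0.07 CPM at day 0 plus VC, 0.058 CPM at day 2 plus VC), and for 1 to 3 counts the ratio carries an exact 95% interval. Intervals and bounds cover counting error only. DESeq2 1.42.0, other scalings, filters, baselines and left-out libraries were tried as alternatives, and scaling by library totals was added after seeing the data.

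The members and the 48 gene lists were chosen with earlier results of these data known. Named genes are Ercc1 and the factors, the 12 largest rises and falls in log2 fold change and the 8 largest in CPM among called protein coding genes without overlap (for the fold changes, those with at least 5 CPM in the higher group), marked list members and up to 6 more per list by p-value, and the 6 largest values each way of both differences among genes with at least 5 CPM in some group. Actg2, Apcdd1, Col15a1, Col4a2, Dpt, Gar1, Il1rn, Ltbp4, Ly6a, Pkp2, Polr1a, Rnf43, Sc5d, Tgm1, Vegfa and Znrf3 were named after their values were seen, and some genes that the rule names are not reported here. Motif shares used RefSeq windows of GRCm38.p6, and printed windows were read from GRCm39 at GENCODE M39 starts. Figures were drawn with matplotlib 3.10.9 in Python 3.11.15.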

Additional observations from a re-analysis of the deposited data

Results flagged for a closer look

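A test of the difference itself singled out the results given here, each a change over the first 2 days that differed between D/KO FBs with and without VC or between D/KO and WT FBs with VC. With groups of 3 libraries, single libraries were not tested as outliers. The VC difference was called higher for 1081 and lower for 1208 genes. On the log2 scale it was positive for Nptx1 (5.39), Tenm4 (5.10), Atp2a3 (4.71), Acsbg1 (4.28), Lgr6 (2.93), Itga6 (2.73), Itgb4 (2.31), Npm1 (1.37) and Myc (1.22). It was negative for Gna14 (-4.92), Adamts17 (-4.12), Cxcl15 (-3.99), Matn4 (-3.98), Axin2 (-3.70), Igfbp2 (-3.28), Il33 (-3.18) and Nkd2 (-2.92).

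The line difference was called higher for 1085 and lower for 1109 genes. It was positive for Laptm5 (7.63), Slc6a12 (6.71), Cyp2s1 (6.13), Evpl (5.99), Dsp (2.54), Ube2c (2.45), Mcm5 (2.35), Aldh3a1 (2.34), Ccna2 (2.15) and Myc (1.04). It was negative for Plvap (-5.15), Wnt16 (-4.50), Grap (-4.19), Card10 (-3.82), Cxcl12 (-2.36), Igfbp5 (-2.09) and Thbs1 (-1.49). Genotype, sex, age and line cannot be told apart in these values.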

How the results depend on the processing

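No paired analysis was possible because the library numbers in the labels are unique and shared by no 2 groups. The counts of genes higher and lower in the 2-day comparison stayed within 1.5 times of 3765 and 3743 with DESeq2 (3757 and 3929, with 99.1% of the calls shared), with DESeq2 size factors, without a filter, with at least 10 counts in every library, with only the groups compared, and against day 0 without VC. Scaled by library totals, 5860 were higher and 2368 lower, the VC difference was called higher for 1950 and the line difference for 1733 higher and 737 lower. With an absolute log2 value of at least 1 as well, the counts were 1498 higher and 1708 lower, 331 and 513 for the VC difference and 494 and 466 for the line difference. Leaving out 1 library gave 3398 to 3575 higher and 3284 to 3531 lower genes, 827 to 1068 and 947 to 1218 for the VC difference, and 834 to 1104 and 888 to 1087 for the line difference. Against day 0 without VC, Axin2 (5.47), C2 (1.32), Dcn (1.14), Dpt (1.03), Lum (0.35), Mmp2 (0.49), Nkd2 (0.96) and Tgfbi (0.34) were called higher rather than lower and Col15a1 (-2.38) and Col4a2 (-0.42) lower rather than higher. Cdk1 (0.58), Id2 (1.05), Mdm2 (0.33), Twist1 (1.01) and Actg2 (-0.97), which had not been called, were called with the other sign. Alpl (0.41), Card10 (-0.08), Il33 (0.22), Mfap4 (0.26), Pmel (0.12) and Sc5d (0.11) changed sign without a call, so only their call was lost. The cause was not tested. Of the single genes named, 20 others lost and 19 gained a call with that baseline. Of the genes given as not called, Aurkb, Ccne1, Cdkn1a, Col2a1, Dnmt1, Junb, Kdm3a, Kdm4c, Ldha, Pdk1, Pgk1, Sfn, Skil, Tgfb2 and Tgfbr2 were called higher when scaled by library totals, and Dnmt3a, Fosl1, Junb, Skil and Tet2 were called without a filter. Members with few counts, such as the keratins near 0, limit the precision of their fold changes at this depth.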
